A study of Homo sapiens with 2 samples.

Results

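To learn where the transcription factor MYBL2 lies at genes of mitotic and checkpoint kinases in Ewing sarcoma cells, the peaks at 9 kinase genes were examined: the Polo-like kinases PLK1, PLK2, PLK3 and PLK4, the centrosomal kinase NEK2, and the DNA damage kinases ATM, ATR, CHEK1 and CHEK2. The genes were given by name. A peak was counted at a gene when at least 1 of its bases lay within 1000 bp either side of any annotated transcription start site (TSS) of that gene. This gave 19 of the 66954 peaks of the deposited list, at 9 of 38690 protein-coding and lncRNA genes. The study used A673, an established Ewing sarcoma cell line, and compared 1 MYBL2 chromatin immunoprecipitation (ChIP-seq) library with 1 input library of sheared DNA from the same unmodified cells. The labels give the antibody as anti-MYBL2, the methods as raised against the phosphorylated protein. Each library was the only one of its kind. The study's reporting summary also lists a rabbit IgG antibody, and no library of it was analysed here. Replicate error is therefore unknown throughout, and no test between conditions could be made.

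As background, MYBL2 (B-MYB) joins the MuvB complex in S phase and takes part in switching on genes needed in G2 and mitosis. Promoters of that class often carry a CHR element, which MuvB recognises, and CCAAT boxes, which NF-Y binds. Genes needed earlier, for DNA replication, more often carry E2F sites. PLK1 drives entry into and passage through mitosis, NEK2 separates the centrosomes, and PLK4 starts centriole duplication. PLK2 and PLK3 are better known as genes induced by growth factors and stress. ATM responds to double-strand breaks and activates CHEK2, while ATR responds to stalled replication forks and activates CHEK1.

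The sequences under the strongest point (summit) of the peaks are shown first, since the kinases differed there. PLK1 and NEK2 are the members with matches near the summit, and ATR, PLK4 and PLK3 are set beside them as summits with none. Each is the part of the 101 bp around the summit that lies outside exons of protein-coding transcripts, written 5′ to 3′ on the strand of the gene (hg19). Capitals mark a match to 1 of 5 motifs sought on both strands: the CHR element (TTTGAA or TTCGAA), the CCAAT box (CCAAT), the E2F site (any of TTCCCGC and TTCGCGC and TTGCCGC and TTGGCGC), the MYB site (CAACNG or TAACNG) and the ETS core (CCGGAAGT).
PLK1, chr16:23690121-23690189, plus strand: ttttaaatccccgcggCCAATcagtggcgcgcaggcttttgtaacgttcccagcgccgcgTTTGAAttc
NEK2, chr1:211848973-211849061, minus strand: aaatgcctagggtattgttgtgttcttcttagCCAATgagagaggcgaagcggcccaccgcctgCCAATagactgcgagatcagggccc
ATR, chr3:142297593-142297693, minus strand: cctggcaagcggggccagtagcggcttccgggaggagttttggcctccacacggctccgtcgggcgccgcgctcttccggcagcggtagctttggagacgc
PLK4, chr4:128801935-128802035, plus strand: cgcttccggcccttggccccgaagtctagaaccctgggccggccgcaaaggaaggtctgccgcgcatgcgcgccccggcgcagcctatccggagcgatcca
PLK3, chr1:45265942-45266042, plus strand: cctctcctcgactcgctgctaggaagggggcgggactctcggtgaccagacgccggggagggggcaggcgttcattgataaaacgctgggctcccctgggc

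All 9 kinase genes had a promoter peak, against 59.4% of 20098 protein-coding genes and 41.9% of all 38690 genes. Most protein-coding promoters were thus called in this library, and the strength of the peaks separated the kinases more than their presence did. At a fold enrichment of 5 or more, 8 of 9 kinases remained, without PLK2, against 49.6% of protein-coding genes. Fold enrichment is the authors' ratio of ChIP fragments stacked at the summit to the background expected there, with 1 fragment added to each. This background came from the peak calling against the input and had a floor of 3.45 fragments over all peaks. The best promoter peak of the 9 genes had a median of 13.5 (range 4.49 to 29.6), and that of all 11941 protein-coding genes with a promoter peak had a median of 8.67. The kinases' median exceeded the best peak of 81.3% of those genes, and 7 of 9 kinases lay above their median.

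PLK1 had the strongest peak, with a fold enrichment of 29.6 from 136 fragments at the summit (95% Poisson interval of the count 114 to 161 fragments), over a background of 3.63 fragments. CHEK1 followed with 21.0 from 118 fragments and ATR with 18.02 from 84 fragments. NEK2 (13.7, 74 fragments), PLK4 (13.5, 63 fragments), CHEK2 (11.8, 76 fragments) and ATM (10.1, 46 fragments) formed a middle group. PLK3 (6.37, 41 fragments) and PLK2 (4.49, 19 fragments, interval 11.4 to 29.7) were the weakest. The background lay between 3.45 and 5.60 fragments at the 9 summits, and that of PLK2 was at the floor of 3.45. By fragment count alone CHEK2 would stand above NEK2 and PLK4, and the other kinases keep their order. Among protein-coding genes with a promoter peak, 98.2% had a weaker best peak than PLK1, 94.6% than CHEK1 and 91.7% than ATR. The share was 29.2% for PLK3 and 11.4% for PLK2.

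**Figure D1:**
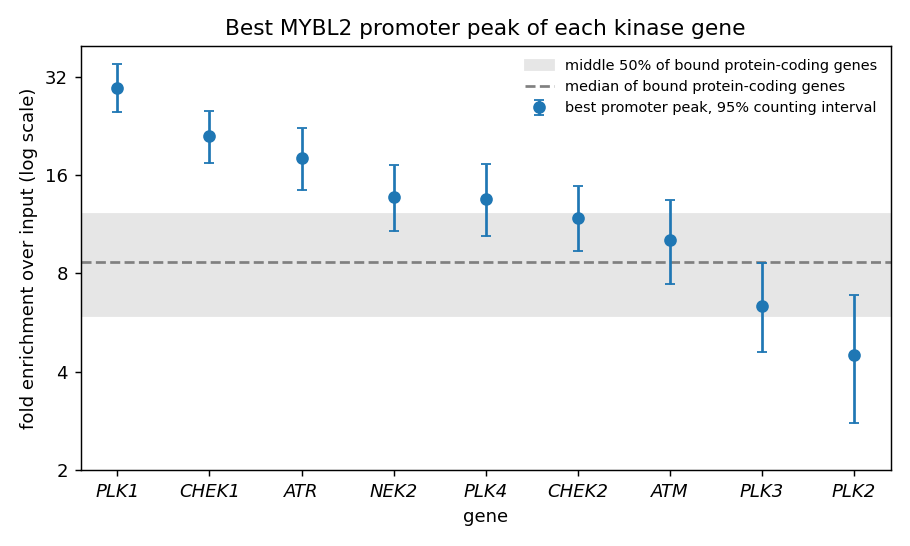
Fold enrichment of the best promoter peak of each kinase gene (points, log scale) with its 95% Poisson counting interval (bars), set against the median (dashed, 8.67) and the middle 50% (grey) of the best promoter peaks of 11941 protein-coding genes. PLK1, CHEK1 and ATR lie above the grey band with their whole intervals, and PLK3 and PLK2 lie below the dashed line.

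With counting error alone considered, the 95% intervals of all 8 pairs of neighbours in this order overlapped, which does not show that their values are alike. The PLK1 interval (24.9 to 35.0) met that of CHEK1 (17.4 to 25.1) only at its edge. Of the 36 possible pairs of kinases, 23 had intervals that did not overlap. The PLK1 interval was apart from all but that of CHEK1, and the PLK2 interval from all but that of PLK3. PLK3, with an interval of 4.61 to 8.58, was apart from 6 of the 8 others, the exceptions being PLK2 and ATM. Within the Polo-like family the best peak therefore ranged from among the strongest of the genome, rank 179 of all peaks for PLK1, to rank 20230 for PLK2. These intervals cover only the counting error of the ChIP fragments in 1 library, with the background held fixed. Fragments are not independent molecules and cells were not sampled again, so the full error may be larger.

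The position of the summit relative to the gene was then measured. In 8 of 9 kinases the summit lay within 100 bp of an annotated TSS of the gene itself, ATM being the exception, against 58.6% of the 11941 protein-coding genes with a promoter peak. The kinases had a median of 14 annotated TSSs (5 to 42) and those genes a median of 7, and the part of this difference in the count was not tested. At PLK1 (ENSG00000166851, chromosome 16, 23688977 to 23701688) the best peak spanned 23689631 to 23690365, and its summit was 39 bp upstream of the TSS of the canonical transcript. At NEK2 (ENSG00000117650, chromosome 1, 211831999 to 211848972) the peak spanned 211848861 to 211849248, with the summit 48 bp upstream of that TSS. With a width of 388 bp the NEK2 peak was the narrowest of the 9, against a median of 865 bp for the best promoter peaks of protein-coding genes. The PLK4 peak (ENSG00000142731, chromosome 4, 128801368 to 128802961) had its summit 63 bp upstream, and the ATR peak (ENSG00000175054, chromosome 3, 142297098 to 142297988) 68 bp upstream. The PLK3 peak (ENSG00000173846, chromosome 1, 45265604 to 45266429) had its summit 57 bp upstream. The PLK2 peak (ENSG00000145632, chromosome 5, 57755727 to 57756247) had it 46 bp downstream, in the 5′ UTR.

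**Figure D2:**
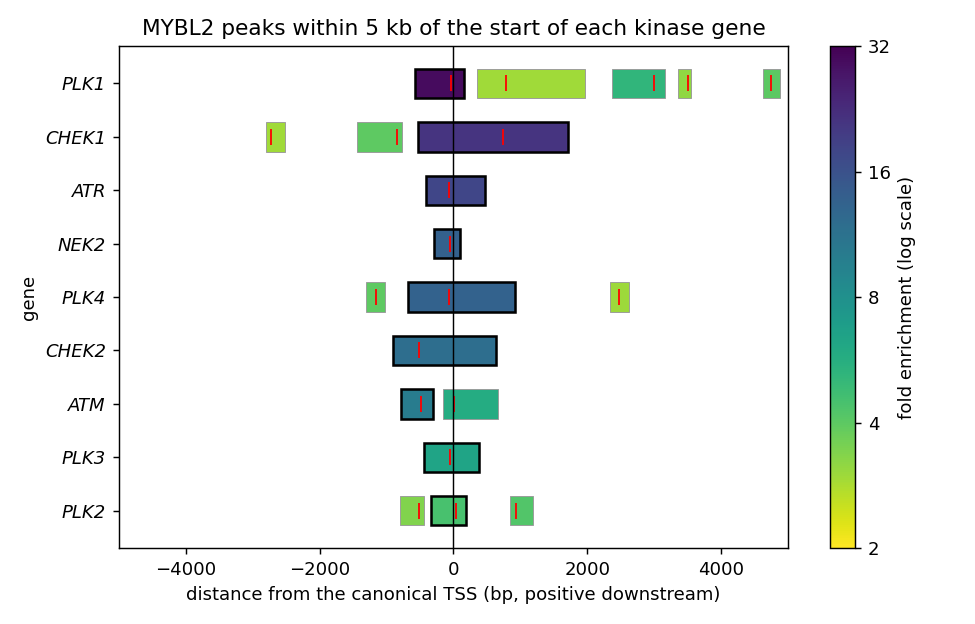
Peaks within 5 kb of the canonical TSS of each kinase gene, drawn to scale along the direction of transcription (x axis, bp). Boxes are peaks coloured by fold enrichment (log scale), black frames mark the best promoter peak and red ticks the summits. ATR, NEK2, CHEK2 and PLK3 have 1 peak in this range, and PLK1 has a row of weaker peaks downstream of its strong one.

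CHEK1 differed in the place of its summit. The CHEK1 peak (ENSG00000149554, chromosome 11, 125494525 to 125496764) was the widest of the 9 at 2240 bp. Its summit was 738 bp downstream of the canonical TSS, in the 5′ UTR of that transcript, and 73 bp upstream of the nearest of its other TSSs. The ratio of observed to expected CpG was 0.507 in the 300 bp at the canonical TSS of CHEK1 and 1.03 in the 301 bp around the summit. The median ratio around the summits of the best promoter peaks of protein-coding genes was 0.859, and that at the canonical TSS of those with a promoter peak 0.863. CHEK2 also had a lower ratio at its canonical TSS (0.609) than around its summit (0.877). The CHEK1 summit was also 12 bp inside a lncRNA transcribed in the opposite direction (ENSG00000288907). A weaker CHEK1 peak of 17 fragments (interval 9.90 to 27.2) and 3.97-fold enrichment had its summit 836 bp upstream of the canonical TSS.

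ATM and CHEK2 shared their promoter peaks with a protein-coding neighbour transcribed in the opposite direction. NPAT, a coactivator of histone gene transcription, starts 429 bp from ATM. The stronger of the 2 peaks there (chromosome 11, 108093018 to 108093493, fold enrichment 10.1) had its summit 58 bp inside NPAT, in its 5′ UTR, and 487 bp upstream of the canonical ATM TSS. The second peak (108093646 to 108094467) had its summit 15 bp downstream of the ATM TSS, in ATM (ENSG00000149311), and held 43 fragments (interval 31.1 to 57.9), or 5.84-fold enrichment. The fragment counts of both peaks, 46 and 43, differed by less than counting error, and the background was 3.66 fragments at the first and 6.53 at the second. The value given to ATM above thus belongs to the peak nearer NPAT. The part of that peak between the transcripts of NPAT and ATM held a CCAAT box and an E2F site on the other strand, 103 and 68 bp from the summit.
NPAT and ATM interval, chr11:108093366-108093493, plus strand: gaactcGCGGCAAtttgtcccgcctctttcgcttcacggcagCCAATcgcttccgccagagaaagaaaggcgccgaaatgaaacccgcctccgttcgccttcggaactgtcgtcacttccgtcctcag

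HSCB, a mitochondrial cochaperone of iron-sulfur cluster assembly, starts 219 bp from the canonical TSS of CHEK2. The best CHEK2 peak (ENSG00000183765, chromosome 22, 29137176 to 29138716) covered both starts. Its summit was 507 bp upstream of the canonical CHEK2 TSS, 95 bp downstream of an outer CHEK2 TSS and inside a coding exon of HSCB. The summit of a second CHEK2 peak (29108344 to 29108885) lay 29315 bp downstream of the canonical TSS and 10 bp from an internal one. This peak held 31 fragments (interval 21.1 to 44.0), or 5.65-fold enrichment. NEK2 shared its peak with the divergent lncRNA NEK2-DT, whose canonical TSS is 166 bp away. One list of peaks cannot assign a shared peak to either gene. CHEK2 also has near-identical copies of its last exons elsewhere in the genome, and reads that mapped with a quality under 20 were removed. Whether this affected peaks there was not tested.

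The motifs were counted next within 50 bp of the summits. PLK1 was the only kinase with the CHR element there, 29 bp upstream of the TSS, and it also had a CCAAT box 73 bp upstream. The CHR element was at 3.88% of 10178 best promoter summits of protein-coding genes, the CCAAT box at 9.72% and both together at 0.648%. At the 1732 of these summits at least as strong as the kinases' median the shares were higher. They were 6.35% for CHR, 12.1% for CCAAT, 18.6% for MYB, 12.2% for E2F and 5.43% for ETS. NEK2 had 2 CCAAT boxes, each 16 bp from the summit, as had 1.25% of those summits. It also had a MYB site at the TSS itself, a motif found at 17.3% of the summits. The other 7 kinases had none of the 5 motifs in this window, as had 63.9% of all summits. E2F sites (8.54% of all summits) and the ETS core (3.48%) were at 0 of 9 kinase summits.

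Within 100 bp of the summit the picture changed for E2F. CHEK1, ATM and PLK2 then had an E2F site (3 of 9 kinases, against 15.99% of summits), and ATM joined PLK1 and NEK2 with a CCAAT box (3 of 9, against 19.7%). The CHR element stayed at PLK1 alone (7.38% of summits). The MYB site was found at ATR and NEK2 (2 of 9, against 30.8%). Over the whole best peak, CHEK1 (2240 bp) and PLK2 (521 bp) each had 3 E2F sites, the nearest 62 and 70 bp from the summit. ATR, PLK4, CHEK2 and ATM each had 1 in theirs. The PLK4 peak held 7 MYB sites in 1594 bp, none closer than 163 bp to the summit. It also held a CHR element 103 bp downstream of the summit, 38 bp inside the transcript. The PLK3 peak held no match to any of the 5 motifs in 826 bp. Peaks differed in width and no share over other whole peaks was computed, so these whole-peak counts cannot be called high or low. A match is a string of letters and not a measured site, and its absence says nothing of a factor.

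**Figure D3:**
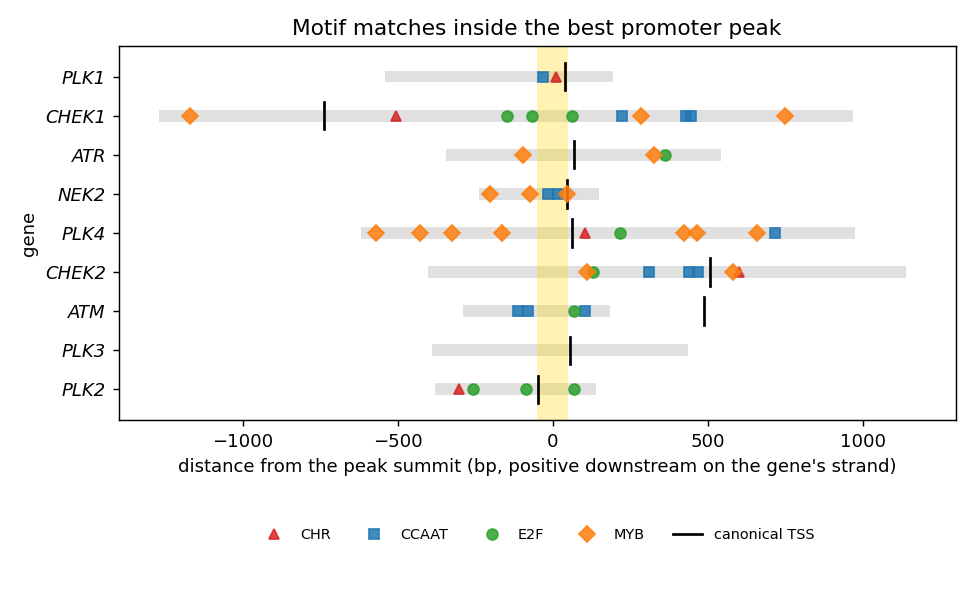
Motif matches inside the best promoter peak of each kinase (grey bars), placed by distance from the summit (x axis, bp, along the direction of transcription). Symbols are CHR elements, CCAAT boxes, E2F sites and MYB sites, black lines the canonical TSS, and the yellow band the 50 bp either side of the summit. PLK1 and NEK2 alone have symbols inside the band.

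By fixed position, in the 300 bp from 250 bp upstream of each canonical TSS, the CHR element was present at PLK1, PLK4 and ATM (3 of 9 kinases, against 12.8% of 19819 protein-coding promoters). The CCAAT box was present at PLK1, NEK2, CHEK2 and ATM (4 of 9, against 36.0%), and the MYB site at PLK4, NEK2, ATM and ATR (4 of 9, against 43.4%). The E2F site was at PLK2 only (1 of 9, against 17.1%), and the ETS core at none (6.18%). At ATM this window lies outside the best peak and overlaps the weaker one (5.84). The best peaks of CHEK1, CHEK2 and PLK2 each held a CHR element outside this window. It lay 505 bp upstream of the summit at CHEK1, 600 bp downstream at CHEK2 and 301 bp upstream at PLK2. For whole peaks no background share was computed.

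Peaks over the genes but outside every promoter window were mostly weak. There were 5 over the 9 kinases, 2 in PLK1 and 1 each in PLK4, CHEK1 and CHEK2, all in introns. The other 5 of 9 kinases had none, against 49.8% of protein-coding genes with a promoter peak. Of the 5 kinases under 20 kb 3 had none (66.7% of such genes), and of the 2 between 20 and 100 kb 0 had none (47.5%). The strongest was 2999 bp into PLK1, with 23 fragments (interval 14.6 to 34.5) and 5.22-fold enrichment, and the other 4 ranged from 2.65 to 3.36. ATM and ATR, the longest of the 9 genes at 146059 and 129727 bp, had none. Of 1479 protein-coding genes of 100 to 200 kb with a promoter peak, 29.5% had none. PLK1 had 6 promoter peaks in its 12712 bp because internal TSSs opened further windows, and the 5 beside the best had fold enrichments from 2.88 to 5.12. All 3 PLK2 peaks were weak (4.49, 4.27 and 3.37). The nearest peak beyond a window was at PLK4, 1025 bp upstream of the canonical TSS at its closer edge, with a fold enrichment of 3.98.

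The kinases were then set beside genes of their pathways. The upstream and partner genes of PLK1 all had a promoter peak (10 of 10, median fold enrichment 14.7). BUB1B, a spindle checkpoint protein (26.1), and PRC1, which bundles spindle microtubules (23.4), were the strongest of these. ECT2, which activates RhoA in cytokinesis (7.56), and CEP55, an abscission factor (12.4), were the weakest. The PLK1 activators AURKA (16.2) and BORA (15.0) lay between them. The summit counted for CDC25C (14.4) lay 6502 bp upstream of the canonical CDC25C TSS, and whether this peak belongs to another gene was not tested. Among centriole duplication partners of PLK4 (8 of 8, median 13.9), the PLK4 recruiter CEP192 (17.5) and the cartwheel protein SASS6 (17.2) were highest. CEP135 (6.13) and CENPJ (8.31), which act in centriole assembly, were lowest.

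Mediators between ATR and CHEK1 all had a promoter peak (13 of 13, median 11.3). TIPIN (28.1) and TIMELESS (15.6), partners at the replication fork, were highest, and the ATR activator ETAA1 (8.57) and the ATR partner ATRIP (7.86) lowest. The mediator of CHEK1 phosphorylation CLSPN had 15.2. All 12 genes around ATM and CHEK2 had 1 too (median 12.9), led by the histone gene H2AX (33.7) and TTI2 (29.7), which helps to fold kinases of the ATM family. RNF8, a ubiquitin ligase at breaks (7.41), was among the lowest. The RPA3 summit lay 78216 bp and the KAT5 summit 8552 bp downstream of the canonical TSS of the gene. With only the outermost TSS of each gene used, 12 of the 13 and 11 of the 12 genes kept a promoter peak. Whether the RPA3 and KAT5 peaks belong to other genes was not tested.

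**Figure D4:**
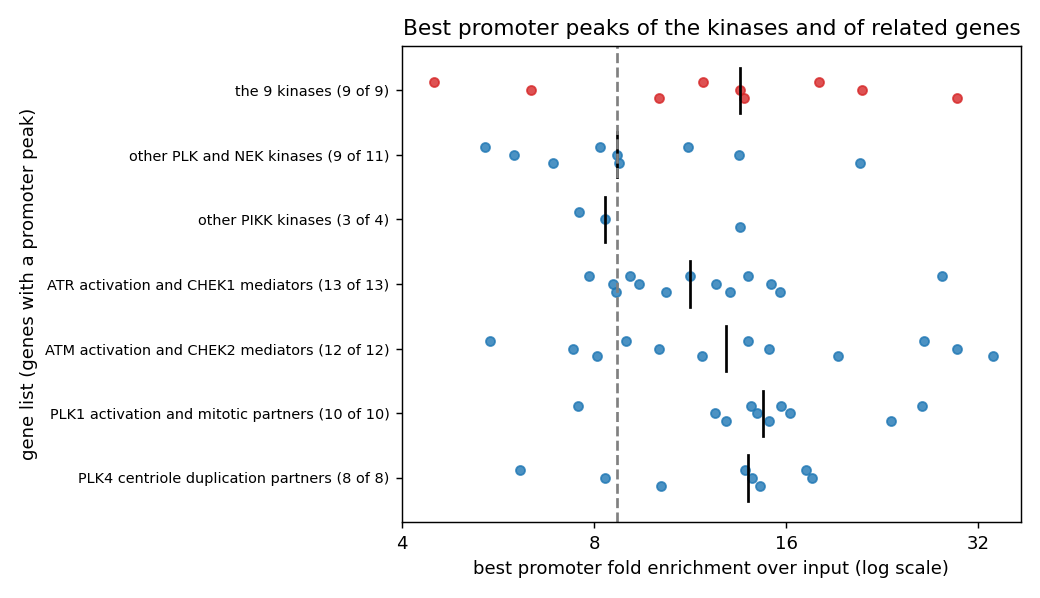
Best promoter fold enrichment (x axis, log scale) of the 9 kinases (red) and of genes in 6 lists of related genes (blue), with list medians as black ticks and the median of all 11941 protein-coding genes with a promoter peak dashed. Genes without a promoter peak are not drawn and are counted in the labels. The medians run from 8.31 for the other PIKK family genes (labelled other PIKK kinases) to 14.7 for PLK1 partners.

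Relatives of the kinases by sequence had the lower values. Of 11 other genes of the Polo-like and NEK families 9 had a promoter peak, with a median of 8.69, close to the 8.67 of all protein-coding genes with a peak. NEK8 (20.9) and NEK9 (13.5) were highest, NEK3 (6.00) and NEK6 (5.39) lowest, and NEK5 and NEK10 had no promoter peak. The NEK8 summit lay 2857 bp upstream of the canonical NEK8 TSS, and the NEK3 summit 2379 bp downstream of that of NEK3. For NEK9 and NEK6 the distances were 69 bp upstream and 169 bp downstream. The summit counted for PLK5 (6.89), the Polo-like gene of this list, lay farther off, 16201 bp upstream of the canonical PLK5 TSS. Whether the NEK8, NEK3 and PLK5 peaks belong to other genes was not tested. Of the 4 other genes of the ATM family (PIKK), PRKDC (13.5), TRRAP (8.31) and MTOR (7.57) had a promoter peak. SMG1 had none. It too has near-identical copies elsewhere, whose part in this was not tested. In all, 55 of 58 pathway genes had a promoter peak (94.8%, against 59.4% of protein-coding genes), with a median of 12.4. The medians of these lists were not tested against each other.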

How the data were processed

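ChIP-seq was done in A673 cells with 1 MYBL2 library and 1 input library. Single-end reads were aligned to hg19 by the authors with Bowtie2. They then removed mapping qualities under 20 and called narrow peaks with MACS2 at a q of 0.05 against the input. The submitters' processing notes give the versions as 2.1.10 and 2.0.10. The deposited peak list holds, per peak, a fold enrichment (a linear ratio, with a pseudocount of 1 fragment on both sides), −log10 p-values and −log10 q-values, a score (10 times the −log10 q without decimals, in all 66954 peaks) and the summit offset. All were made by the authors. The name of the list mentions cleaning, of which no source used here gives details. No file of the input library was used.

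Fold enrichment and p were solved for the whole-number pileup, which all 66954 peaks allowed (largest misfit 3.49e-05 in −log10 p, tolerance 0.01). The background floor of 3.45 fragments, a genome size of 2700000000 bp and the smallest peak width of 164 bp as fragment length correspond to about 56800000 ChIP reads. Counts have exact Poisson limits at 95%, for counting error alone. The limits of the fold enrichments were taken from these with the background held fixed. The hg19 coordinates were compared with the GRCh37 assembly, and 0 peaks passed a chromosome end. Genes and 193738 TSSs came from the GENCODE annotation lifted to that build, on 23 chromosomes. The best promoter peak is the one of highest fold enrichment. Scripts used Python 3.11.15, pandas 2.3.3, scipy 1.17.1 and pysam 0.24.0 and were tested on simulated data. No significance test was run.

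The kinases, the gene lists (from general knowledge) and the motifs were chosen with earlier results of these data known. Named genes were the 9 kinases, genes sharing their best peaks, and from each list the 2 highest, the 2 lowest and those without a peak. A further list and a member of another are not reported here. AURKA, BORA, CLSPN, CDC25C, RPA3, KAT5 and PLK5 were named afterwards. Wider motif backgrounds, motif pairs, fixed 300 bp windows and CpG ratios were also added afterwards.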

Additional observations from a re-analysis of the deposited data

How the results depend on the processing

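No paired analysis was possible because the ChIP and the input had 1 library each. Alternatives were peaks with −log10 q or fold enrichment of at least 5, a narrower window (500 bp on both sides), a wider one (from 5000 bp upstream), a summit rather than any base inside it, the outermost TSS only, and ranking by −log10 q. The best fold enrichment of each kinase was the same peak value in all 62 results these 7 alternatives gave. A fold enrichment of at least 5 gave no value for PLK2. The kinases' median stayed between 13.5 and 13.6. The kinases with a promoter peak fell from 9 to 8 with a fold enrichment of at least 5. With the outermost TSS only, the mediators between ATR and CHEK1 fell from 13 to 12. The genes around ATM and CHEK2 fell from 12 to 11. The other counts of genes with a promoter peak, for the kinases and for the 6 lists of related genes, did not change.

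Motif counts moved with the window. Within 100 bp of the summit the CCAAT box was at 3 kinases, the E2F site at 3 and the MYB site at 2. Within 25 bp the CCAAT box was at 1 and the MYB site at 0. Peaks over the kinases outside promoters fell from 5 to 1 with −log10 q of at least 5, to 1 with fold enrichment of at least 5 and to 1 with the wider window. These changes follow from larger or smaller windows and stricter filters. At 19 fragments, as for PLK2, counting error alone spans 11.4 to 29.7 fragments, so small differences between the weakest kinases could not be detected.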
